A study of Mus musculus with 18 samples.

Results

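Described here is the change in lung gene expression across birth in the control mice of the *Scap* line, from embryonic day 18.5 (E18.5) to postnatal day 1 (PN1). These controls account for 6 of the 18 arrays of the series, 3 at each age, and were chosen by their sample labels alone. Messenger RNA of nearly all genes was read from whole lung with the Affymetrix Mouse Gene 1.0 ST array. Arrays C7, C8 and C9 are of E18.5 and C13, C14 and C15 of PN1, and the labels give each array as a separate biological replicate. All of these mice carried the floxed *Scap* allele on both chromosomes (*Scap* flox/flox) and lacked either the SP-C-rtTA or the (tetO)7CMV-Cre transgene, so that *Scap* could not be deleted from lung epithelium. The sources used here do not say which of the transgenes a given control carried, nor which lungs came from the same litter. The dams of all groups received doxycycline in gestation, and the strain background was mixed and included FVB/N. Fetuses of E18.5 were delivered by Cesarean section under anesthesia, whereas PN1 pups were born, collected that day and killed with pentobarbital. Age, birth, air breathing, feeding and the way the lung was collected therefore differ together between the groups and cannot be told apart. RNA came from whole lung, in which fewer cells of a type and less RNA per cell cannot be told apart either. The other arrays of the line, 3 *Scap* deleted lungs at each age, and the 3 controls of the *Insig* line at E17.5, which are *Insig1* flox/flox on an *Insig2*-/- background, are used only for comparison.

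At birth the mouse lung passes from a fluid-filled organ supplied with little blood to the site of gas exchange. Airway and alveolar epithelium absorbs the liquid through the epithelial sodium channel, type II cells keep secreting the surfactant they have stored, the thin type I cells and the capillaries beneath them carry the gas, and the oxygen that reaches the tissue rises. Mitosis slows in the saccular lung, and alveoli are made later, when myofibroblasts and elastic fibers raise new septa.

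The deposited values are log2 expression per probe set, so that a difference of 1 is a doubling. The 6 arrays had medians of 7.47 to 7.48. Over all probe sets the correlation between arrays was 0.9969 to 0.9975 within E18.5, 0.9932 to 0.9964 within PN1 and 0.9920 to 0.9940 between the ages. Array C13 was the PN1 array most like E18.5, and of the 2552 probe sets called below it lay nearest to the E18.5 mean in 51.6%, against 31.9% for C14 and 16.5% for C15. By *Xist* and the genes of the Y chromosome, C9 and C13 were female lungs and the others male, so each age held 2 males and 1 female. The label of lung was borne out by the defining genes of its epithelium. *Sftpc*, which encodes surfactant protein C of type II cells, read 13.38, 13.42 and 13.38 at E18.5 and 13.36, 13.37 and 13.37 at PN1, and *Ager* of type I cells read 12.62, 12.62 and 12.61 at E18.5 and 12.62, 12.61 and 12.57 at PN1. *Scgb1a1* of club cells had a mean of 13.05 ± 0.04 (SD, n = 3) at E18.5 and 13.18 ± 0.04 at PN1. These 3 genes were high on every array, and their differences of -0.03, -0.02 and 0.13 did not pass the test. The intact target of the mouse line, *Scap*, read 9.75, 9.71 and 9.71 at E18.5 and 9.91, 9.76 and 9.92 at PN1, a difference of 0.14 (standard error 0.06, adjusted p = 0.208). The housekeeping genes *Actb*, *Tbp*, *Hprt* and *Ppia* differed by 0.04, -0.02, 0.21 and -0.01, none of them called.

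Between E18.5 and PN1 the levels of 2552 of 22962 probe sets changed, 1311 upward and 1241 downward, at an adjusted p under 0.05 from limma. That is 5.71% of the probe sets tested in the upward and 5.4% in the downward direction, or 11.1% in all. These shares are the background against which the gene groups below are read. The gene groups hold only probe sets with 1 symbol. Of the 16648 of these tested 1088 were called higher and 1062 lower, which are slightly larger shares. The changes were mostly small. The median size among the called probe sets was 0.43 on the log2 scale, 98 of them were higher by 1 or more and 99 lower by 1 or more, and the median difference over all probe sets tested was 0.008. At a stricter threshold, that of the study's methods (adjusted p up to 0.01 and at least a 1.5-fold change), 242 were higher (1.05%) and 275 lower (1.2%). All 3 PN1 arrays lay above all 3 E18.5 arrays in 4044 probe sets (17.6%) and below them in 3773 (16.4%), the called ones among them. For a single gene an exact permutation test of 3 lungs against 3 cannot give a p below 0.1, two-sided. The calls rest on the model of limma, which draws the spread of each probe set toward a value pooled over all. The counts depended on single arrays. Without C7, C8, C9 or C15 the upward count was 410, 480, 524 or 496 and the downward count 476, 531, 511 or 551, whereas without C13 the counts were 2592 and 2616. Of the calls 369 upward and 411 downward were kept whichever array was left out. Called genes named below without a remark on a lost call are among these. For the gene lists that follow, counts above 3 that moved by more than 1.5 times without an array are given beside the list. Smaller counts are mostly given without such moves. They can include genes that are not named and whose calls were lost without an array.

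**Figure D1:**
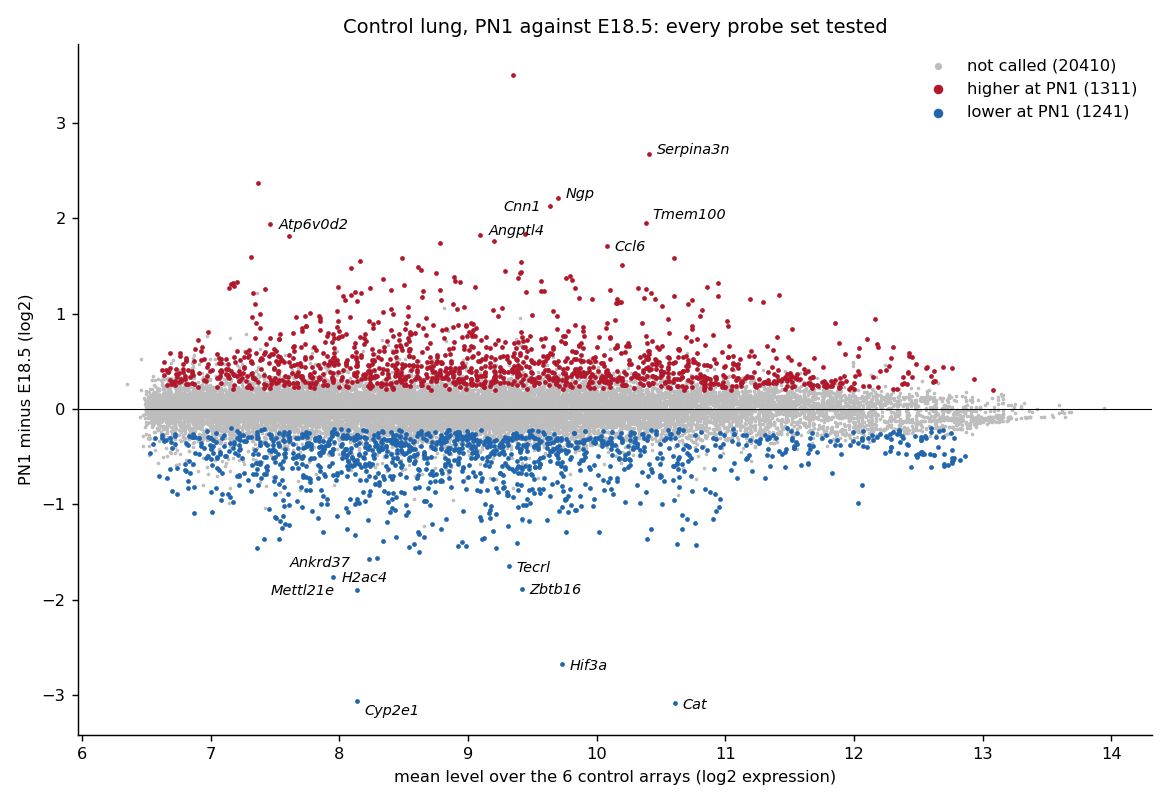
Difference between PN1 and E18.5 (log2, y axis) against the mean level over the 6 control arrays (log2 expression, x axis) for each of the 22962 probe sets tested, with those called higher in red and those called lower in blue. The largest changes of genes with a single symbol are named, among them *Cat* and *Cyp2e1* at the bottom and *Serpina3n*, *Ngp* and *Cnn1* at the top.

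Among genes with a single symbol, the largest decreases were in enzymes and in a transcription factor of the hypoxia system. *Cat* (probe set 10485466), which encodes catalase, the peroxisomal enzyme that breaks down hydrogen peroxide, read 12.47, 11.89 and 12.12 at E18.5 and 9.30, 9.0 and 8.91 at PN1. The groups did not overlap, and *Cat* was 8.53-fold lower at PN1, with a difference of -3.09 (standard error 0.16, adjusted p = 0.000402). Its level in the deleted lungs was not uniform at E18.5, where KO10, KO11 and KO12 read 12.08, 12.36 and 9.69, so that KO12 lay near the PN1 controls. *Cyp2e1* (probe set 10558673), a cytochrome P450 that oxidizes ethanol and other small molecules, read 9.78, 9.39 and 9.85 at E18.5 and 6.89, 6.43 and 6.53 at PN1, a difference of -3.06 (standard error 0.16, adjusted p = 0.000402). *Hif3a* (probe set 10560329), an alpha subunit of the hypoxia-inducible factors of which some isoforms oppose the others, read 11.08, 11.03 and 11.08 at E18.5 and 9.21, 7.90 and 8.04 at PN1. It was 6.4-fold lower at PN1, at -2.68 (standard error 0.31, adjusted p = 0.00348), and C13 kept more of it than C14 and C15. *Zbtb16*, a zinc finger repressor that glucocorticoids induce, showed the same order among the PN1 arrays, at 10.28, 10.21 and 10.62 at E18.5 and 9.20, 8.23 and 8.0 at PN1.

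Other genes among the 15 largest decreases belong to different groups. The replication-dependent histone gene *H2ac4*, the mitotic genes *Bub1* and *Kif11* and the PCNA-binding factor *Pclaf* fell by 1.76, 1.56, 1.5 and 1.45 on the log2 scale. *Abca1*, which loads cholesterol onto apolipoprotein A-I, read 10.03, 9.91 and 9.93 at E18.5 and 8.88, 8.17 and 8.42 at PN1 and fell by 1.46. *Gnmt*, the glycine N-methyltransferase that uses up S-adenosylmethionine, read 9.77, 9.74 and 9.58 at E18.5 and 8.05, 8.43 and 8.28 at PN1 and fell by 1.44. *Mettl21e*, *Tecrl*, *Cavin4*, *Zbtb8b* and *Ankrd37*, described with the hypoxia genes, completed the set. The 4 named before it had differences of -1.90, -1.65, -1.46 and -1.42, and no PN1 array of any of them reached an E18.5 array.

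**Figure D2:**
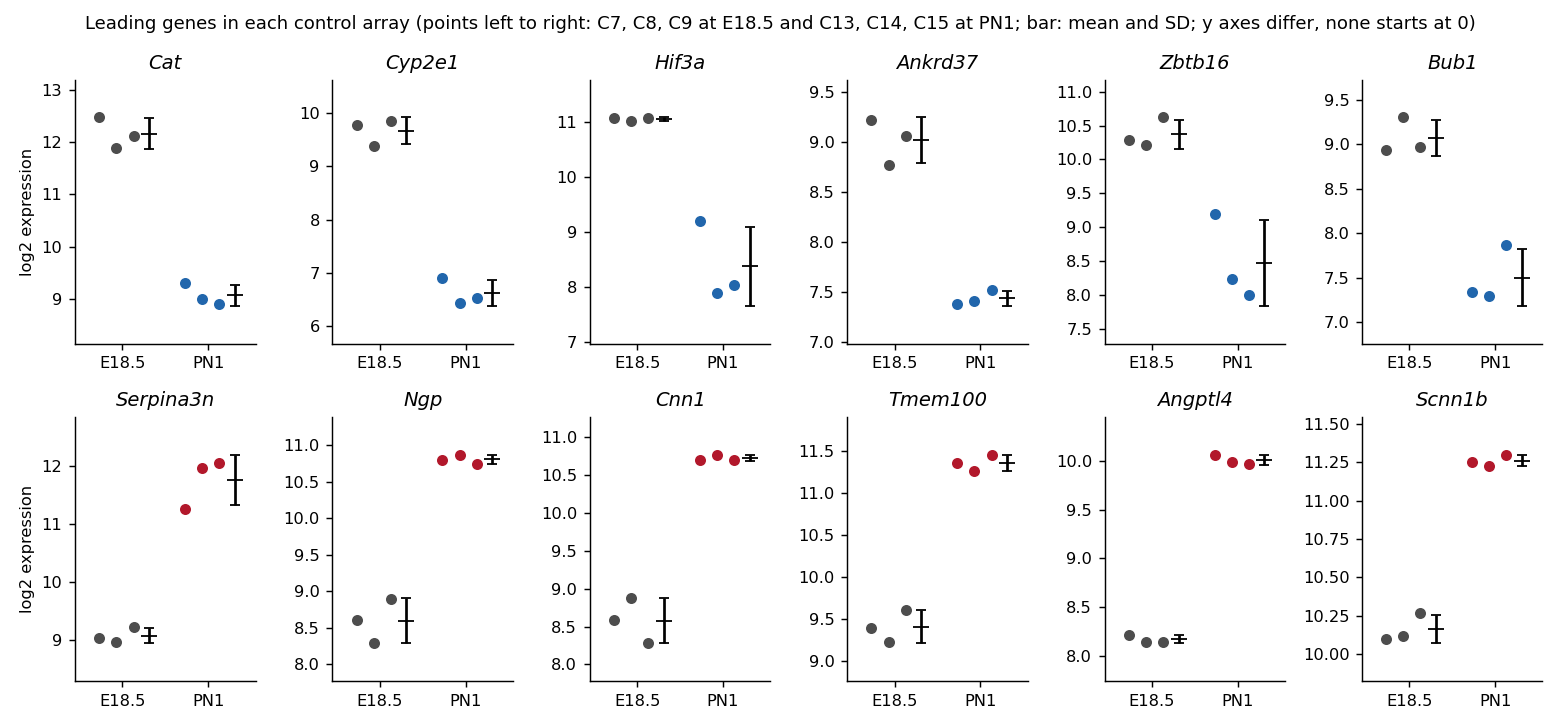
Log2 expression (y axes, which differ between panels and do not start at 0) of 12 genes in each control array at E18.5 (grey) and at PN1 (blue where lower, red where higher), with the mean and SD (n = 3) beside each group. The groups do not overlap in any panel, and in *Hif3a* and *Zbtb16* the PN1 array nearest to E18.5 is C13.

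Many genes of the hypoxia response and of glycolysis fell. Hypoxia-inducible factors are stable where oxygen is short and switch on glucose uptake, glycolysis and their own prolyl hydroxylases, the enzymes that mark them for destruction when oxygen returns. Of the members 16 of 37 were called lower (43.2%, against 5.4% of all probe sets) and 1 higher, and the median difference over the 37 genes was -0.30, against 0.008 over all probe sets tested. *Ankrd37*, an ankyrin repeat gene induced by hypoxia, read 9.22, 8.77 and 9.06 at E18.5 and 7.38, 7.41 and 7.52 at PN1, a difference of -1.58 (standard error 0.11, adjusted p = 0.000887). *Egln3*, a prolyl hydroxylase of the pathway, read 11.06, 10.91 and 11.27 at E18.5 and 9.58, 9.65 and 9.88 at PN1, a difference of -1.37 (standard error 0.11, adjusted p = 0.00136). *Ndrg1*, another hypoxia-induced gene, read 11.66, 11.30 and 11.48 at E18.5 and 10.35, 10.26 and 10.35 at PN1, a difference of -1.16 (standard error 0.09, adjusted p = 0.00122). In all 3 the PN1 values lay within a narrow band well below the E18.5 values. Other members that fell, chosen after their values were seen, were the glucose transporter *Slc2a1* at -0.94, hexokinase 2 (*Hk2*) at -0.59, phosphofructokinase (*Pfkl*) at -1.03, *Pdk1*, which keeps pyruvate out of the mitochondrion, at -0.76 and *Bnip3* of mitophagy at -0.73. *Epas1*, which encodes HIF-2 alpha and is strongly expressed in lung endothelium, was the member called higher, at 11.08, 10.93 and 11.07 at E18.5 and 11.99, 11.53 and 11.82 at PN1. The mRNAs of *Hif1a* and of *Vegfa*, the endothelial growth factor, differed by -0.07 and 0.13 and were not called. Without any single array the downward count lay between 12 and 18.

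Hypoxia-inducible factors bind the core ACGTG. In RefSeq promoters of GRCm38.p6, taken as the 300 bases from 250 before to 50 after the listed start and with the start listed first where a gene has several, this core (or CACGT, the same core on the other strand, which the E-box CACGTG also contains) occurred in 19 of 32 members with a promoter entry (59.4%) and in 19.7% of all 27025 promoters. Among the members that fell and have an entry it occurred in 10 of 15. The promoters of the 2 leading genes that hold it are shown with the core in capitals, *Ankrd37* from chr8:45999801-46000100, minus strand, and *Egln3* from chr12:54203825-54204124, minus strand.
Ankrd37 promoter: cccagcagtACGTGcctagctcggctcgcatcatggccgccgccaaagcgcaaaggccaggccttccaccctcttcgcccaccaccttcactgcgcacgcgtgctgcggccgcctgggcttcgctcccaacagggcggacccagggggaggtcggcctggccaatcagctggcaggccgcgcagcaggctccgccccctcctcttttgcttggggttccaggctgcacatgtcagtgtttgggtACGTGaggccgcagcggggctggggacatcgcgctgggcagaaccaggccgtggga
Egln3 promoter: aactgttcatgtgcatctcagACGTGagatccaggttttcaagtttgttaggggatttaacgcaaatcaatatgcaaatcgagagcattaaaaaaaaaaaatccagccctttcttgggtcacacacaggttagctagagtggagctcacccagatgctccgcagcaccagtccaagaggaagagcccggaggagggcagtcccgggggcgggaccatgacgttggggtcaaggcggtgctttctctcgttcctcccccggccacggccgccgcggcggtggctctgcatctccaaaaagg
The first holds 2 copies of the core and the second 1. A match of letters is a description of the promoter and not evidence of binding.

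Genes of the cell cycle fell, led by those of mitosis. Of 48 cell cycle genes 26 were called lower (54.2%) and 0 higher, with a median of -0.54. In 33 of them every PN1 array was lower than every E18.5 array, against 16.4% of all probe sets. *Bub1*, a kinase of the spindle checkpoint, read 8.93, 9.30 and 8.97 at E18.5 and 7.34, 7.30 and 7.87 at PN1, a difference of -1.56 (standard error 0.17, adjusted p = 0.00267). *Kif11*, the motor that pushes spindle poles apart, read 9.15, 9.62 and 9.33 at E18.5 and 7.76, 7.78 and 8.06 at PN1, a difference of -1.5 (standard error 0.13, adjusted p = 0.00155). *Top2a*, the topoisomerase that untangles chromosomes, read 9.63, 10.04 and 9.72 at E18.5 and 8.55, 8.20 and 8.60 at PN1, and *Kif20a*, a motor of cytokinesis, fell by 1.31. By contrast *Pcna*, the sliding clamp of replication, which was chosen after its values were seen, read 11.27, 11.44 and 11.27 at E18.5 and 11.36, 11.35 and 11.36 at PN1 and differed by 0.03, and *Ccnd1*, which encodes the G1 cyclin D1, differed by 0.24 (adjusted p = 0.0773). Histone mRNAs of the replicating cell moved with mitosis, with 5 of 7 tested called lower and a median of -0.50 over 8. *H2bc3* read 10.83, 11.24 and 11.07 at E18.5 and 9.62, 9.94 and 9.80 at PN1. In controls of the *Insig* line a day before E18.5, at E17.5, *Top2a* had a median of 11.10 and *Bub1* of 10.03, above every *Scap* control of E18.5, although that line differs in genotype and no test was made. The count of cell cycle genes called lower was between 18 and 29 when 1 array was left out.

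Genes that glucocorticoids are known to induce moved in both directions, most of those called downward. Fetal lung matures under glucocorticoids, which act through the receptor NR3C1. Of 25 tested genes 13 were called lower (52%) and 5 higher (20%), with a median of -0.31. Besides *Zbtb16* and *Hif3a*, the lower members included *Fkbp5*, a co-chaperone that restrains the receptor, and *Tsc22d3*, the anti-inflammatory mediator GILZ, both chosen after their values were seen. *Fkbp5* read 9.89, 10.01 and 10.04 at E18.5 and 9.32, 8.74 and 8.91 at PN1, a difference of -0.99 (standard error 0.14, adjusted p = 0.00671). *Tsc22d3* differed by -0.66 (standard error 0.10, adjusted p = 0.00798). On the other side *Sgk1*, the kinase that keeps the epithelial sodium channel at the membrane, read 9.25, 9.22 and 9.36 at E18.5 and 10.29, 10.41 and 10.62 at PN1, a difference of 1.16 (standard error 0.09, adjusted p = 0.00117), and *Angptl4*, an inhibitor of lipoprotein lipase, read 8.22, 8.15 and 8.15 at E18.5 and 10.06, 9.99 and 9.97 at PN1 and was 3.56-fold higher. Some of these genes answer to other signals as well, *Angptl4* to fatty acids and *Hif3a* to hypoxia. The receptor *Nr3c1* differed by -0.32 (standard error 0.09, adjusted p = 0.0568) and was not called. Counts without 1 array lay between 8 and 15 lower, with 8 without C7 and 8 without C9, and between 4 and 5 higher.

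In the circadian clock *Per1*, *Per2* and the output genes *Dbp*, *Tef* and *Hlf* fell, while the receptor genes *Nr1d1* and *Nr1d2* rose. CLOCK and BMAL1 drive the *Per* genes through E-boxes, the *Per* proteins repress them, and the receptors *Nr1d1* and *Nr1d2* repress the gene of BMAL1. Of 18 clock genes 6 were called lower (33.3%), *Bhlhe40* being the other, and 2 higher (11.1%). *Per1*, which is also a glucocorticoid target, read 10.42, 10.30 and 10.41 at E18.5 and 9.66, 8.85 and 9.43 at PN1, a difference of -1.06 (standard error 0.19, adjusted p = 0.0149). *Tef* and *Hlf*, which encode PAR bZIP factors that act at D-boxes, differed by -0.85 (standard error 0.10, adjusted p = 0.00402) and -0.75 (standard error 0.09, adjusted p = 0.0035). *Nr1d1* read 8.83, 8.75 and 8.71 at E18.5 and 9.75, 9.48 and 9.31 at PN1, a difference of 0.75 (standard error 0.11, adjusted p = 0.00744), opposite in direction to *Per1*. Calls were lost for *Per1* without C7, C8 or C9 (adjusted p up to 0.068), *Per2* without C7, C8, C9 or C15 (adjusted p up to 0.0917), *Dbp* without C7, C8, C9 or C15 (adjusted p up to 0.136), *Bhlhe40* without C7, C9, C14 or C15 (adjusted p up to 0.117) and *Nr1d2* without C9 (adjusted p up to 0.0509), and the downward count was 2 without C7, 3 without C8, 2 without C9 and 3 without C15. The time of day at which lungs were taken is not given in the sources used here. The E-box CACGTG occurred in 5 of 16 clock promoters against 7.24% of all promoters, and in 2 of the 4 that fell and have an entry, *Per1* and *Tef*, and the D-box TTATGTAA (TTACATAA on the other strand) in 1 of 16 against 0.955%. The promoter of *Per1* (chr11:69098699-69098998, plus strand, GRCm38.p6) is shown with its E-box in capitals.
Per1 promoter: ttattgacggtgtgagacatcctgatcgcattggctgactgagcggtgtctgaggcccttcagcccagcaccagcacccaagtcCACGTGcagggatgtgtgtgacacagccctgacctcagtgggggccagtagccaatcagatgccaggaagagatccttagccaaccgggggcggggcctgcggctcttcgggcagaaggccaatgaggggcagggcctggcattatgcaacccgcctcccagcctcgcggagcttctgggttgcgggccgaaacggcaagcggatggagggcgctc
The box lies upstream of the listed start.

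The largest increases came from genes of different roles. *Serpina3n* (probe set 10398075), an acute phase inhibitor of serine proteases, read 9.03, 8.97 and 9.22 at E18.5 and 11.25, 11.96 and 12.04 at PN1 and was 6.39-fold higher at PN1, a difference of 2.68 (standard error 0.20, adjusted p = 0.000938). *Ngp* (probe set 10589535), a protein of neutrophil granules, read 8.61, 8.29 and 8.90 at E18.5 and 10.80, 10.87 and 10.75 at PN1, a difference of 2.21 (standard error 0.14, adjusted p = 0.000773). *Cnn1* (probe set 10583809), calponin of smooth muscle, read 8.58, 8.87 and 8.28 at E18.5 and 10.69, 10.76 and 10.69 at PN1, a difference of 2.13 (standard error 0.14, adjusted p = 0.000773). The 3 PN1 arrays of *Ngp* and of *Cnn1* were close together, whereas for *Serpina3n* C13 was lower than C14 and C15. *Tmem100* (probe set 10380285), an endothelial membrane protein downstream of BMP9 and ALK1, read 9.39, 9.22 and 9.61 at E18.5 and 11.35, 11.26 and 11.45 at PN1, a difference of 1.95 (standard error 0.10, adjusted p = 0.000402). *Atp6v0d2*, a subunit of the vacuolar proton pump found in macrophages and osteoclasts, read 6.41, 6.47 and 6.60 at E18.5 and 8.92, 8.21 and 8.16 at PN1, and *Pgf*, placental growth factor, read 7.74, 7.83 and 8.02 at E18.5 and 8.88, 9.62 and 9.57 at PN1. The remaining members of the 15 largest increases were *Medag* (1.81), *Stfa2* (1.74), *Ccl6* (1.71), *Slc39a2* (1.59), *S100a6* (1.58), *S100a9* (1.58), *Ly6g6c* (1.55) and *Retnlg* (1.54), beside *Angptl4*. *Stfa2* belongs to a cluster of near-identical stefin A genes, whose signals this array may not separate. A probe set to which the annotation gives no symbol (probe set 10598041), singled out after its value was seen, had a larger difference, at 3.5.

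Most genes of neutrophils rose. Neutrophils carry antimicrobial proteins in granules that are made in order as the cell matures in the bone marrow, so that granule mRNAs mark the stage of the cell. Of 20 neutrophil genes 12 were called higher (60%, against 5.71% of all probe sets) and 0 lower, and all 22 on the array had a difference above 0, with a median of 0.58. Averaged over the list, levels relative to the E18.5 mean were 0.62, 0.84 and 0.76 in C13, C14 and C15 and between -0.11 and 0.08 at E18.5. *Ltf*, lactoferrin of the secondary granules, read 7.36, 7.31 and 7.38 at E18.5 and 9.01, 8.69 and 8.79 at PN1, a difference of 1.48 (standard error 0.09, adjusted p = 0.000511). *S100a9*, a subunit of calprotectin, read 7.70, 7.58 and 7.84 at E18.5 and 9.03, 9.57 and 9.25 at PN1, and *Retnlg*, a resistin-like protein of neutrophils, read 8.75, 8.38 and 8.79 at E18.5 and 9.89, 10.44 and 10.21 at PN1. Differences of both exceeded 1.5 on the log2 scale. Genes of the primary granules, chosen after their values were seen, did not pass, with the proteases *Elane* at 0.07 and *Prtn3* at 0.02 and the peroxidase *Mpo* at 0.37. The upward count was 7 without C15 and did not exceed 13 without any other array.

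Many chemokines and cytokines rose, with 15 of 31 called higher (48.4%) and 0 lower and a median of 0.40 over 36. *Ccl6*, a chemokine of myeloid cells, read 9.27, 9.11 and 9.30 at E18.5 and 10.98, 10.96 and 10.88 at PN1, a difference of 1.71 (standard error 0.07, adjusted p = 0.000237). *Ccl3*, macrophage inflammatory protein 1 alpha, read 8.03, 7.65 and 8.01 at E18.5 and 9.65, 9.42 and 9.02 at PN1, and *Cxcl16*, a membrane-bound chemokine and scavenger receptor, read 8.37, 8.26 and 8.61 at E18.5 and 9.52, 9.78 and 9.78 at PN1. *Il1b*, which encodes the cytokine interleukin 1 beta, read 6.87, 6.49 and 6.79 at E18.5 and 7.79, 8.03 and 8.0 at PN1 and counts in the neutrophil list too. Neutrophils also express several of these genes, and the part of that cell type in the change of the chemokines was not tested.

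Genes of macrophages and monocytes went both ways, with 4 called higher, 3 lower of 27 and a median of 0.07. *Cd14*, the co-receptor for endotoxin, read 7.48, 7.46 and 7.53 at E18.5 and 8.52, 8.80 and 8.76 at PN1, a difference of 1.2 (standard error 0.08, adjusted p = 0.000811), and *Lgals3*, galectin 3, differed by 0.98 (standard error 0.14, adjusted p = 0.00621). In the other direction *F13a1*, a coagulation factor subunit of tissue macrophages, read 9.92, 9.93 and 10.05 at E18.5 and 9.16, 9.08 and 9.13 at PN1, a difference of -0.84 (standard error 0.06, adjusted p = 0.000887), and *Mertk*, a receptor for the clearance of dying cells, differed by -0.77 (standard error 0.09, adjusted p = 0.00351). None of the 12 genes of antigen presentation was called, with differences from -0.25 to 0.17. Among interferon response genes 4 of 23 were called lower and 1 higher. Of the 25 on the array 21 had a difference below 0, with a median of -0.17. *Iigp1*, a GTPase against intracellular pathogens, read 9.59, 9.54 and 9.61 at E18.5 and 8.80, 8.73 and 8.65 at PN1. The member called higher was *Ifit3*, an antiviral protein, at 6.77, 6.56 and 7.04 at E18.5 and 8.08, 8.33 and 7.75 at PN1, opposite in direction to *Iigp1*. The downward count of that list was 1 without C7, 2 without C8, 1 without C9 and 1 without C15. Lymphocyte genes had 1 of 12 tested called higher, *Gata3* at 0.56, and 1 lower, *Gzmb*, granzyme B of cytotoxic cells, at -1.14. Differences above 0 were seen in 21 of the 24 on the array and below 0 in 3, with a median of 0.10.

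**Figure D3:**
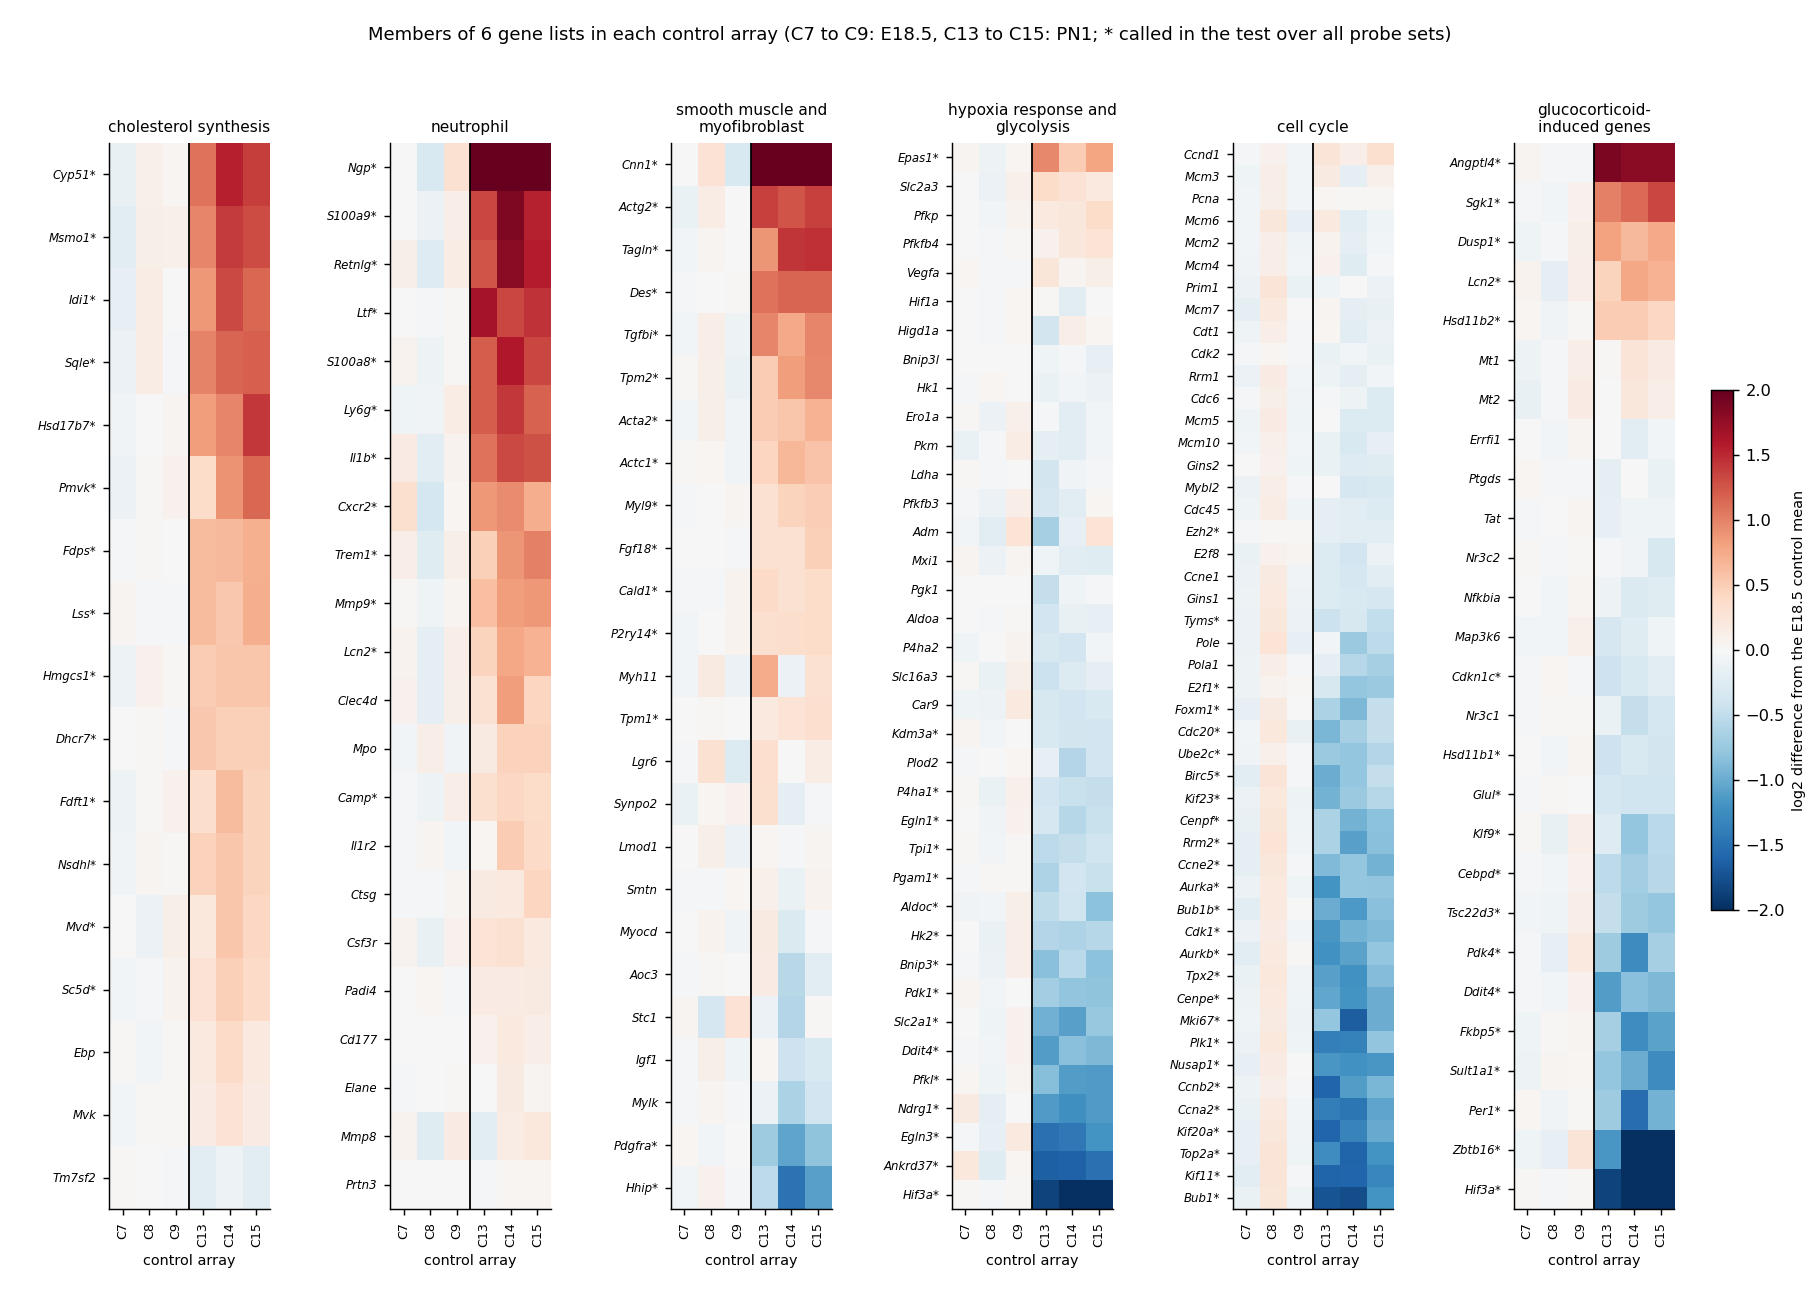
Level of each member of 6 gene lists (rows, sorted by the difference between the ages) in each control array (columns, C7 to C9 at E18.5 and C13 to C15 at PN1), as the log2 difference from the E18.5 control mean on a color scale from -2 to 2. Members marked with an asterisk were called, which are 14 of the 17 cholesterol synthesis genes and 26 of the 48 cell cycle genes.

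Some genes of liquid absorption rose. Sodium enters the epithelium through a channel of alpha, beta and gamma subunits (*Scnn1a*, *Scnn1b*, *Scnn1g*) and water follows. Of 31 genes of fluid and ion transport 9 were called higher (29%) and 2 lower (6.45%). *Scnn1b* read 10.10, 10.12 and 10.27 at E18.5 and 11.25, 11.23 and 11.30 at PN1, a 2.14-fold increase with a difference of 1.10 (standard error 0.06, adjusted p = 0.000511), and the PN1 arrays were nearly equal. *Scnn1g* and *Scnn1a* were named after their values were seen. *Scnn1g* differed by 0.35 (standard error 0.06, adjusted p = 0.0136) and *Scnn1a* by 0.20 (standard error 0.07, adjusted p = 0.118), and the latter was not called, so the beta subunit showed the largest difference of the 3. *Nedd4l*, the ubiquitin ligase that removes the channel from the membrane, moved in the other direction, at 11.67, 11.65 and 11.70 at E18.5 and 11.11, 10.82 and 10.91 at PN1 and a difference of -0.73 (standard error 0.08, adjusted p = 0.0031). *Cldn4*, a claudin of epithelial tight junctions, read 9.82, 10.06 and 9.82 at E18.5 and 10.34, 10.84 and 11.21 at PN1 and differed by 0.90 (standard error 0.20, adjusted p = 0.0328). Calls were lost for *Scnn1g* without C7, C8 or C15 (adjusted p up to 0.0735) and *Cldn4* without C7, C8, C9, C14 or C15 (adjusted p up to 0.123). The upward count was 3 without C7, 3 without C8, 5 without C9 and 3 without C15.

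The main surfactant protein genes did not pass the test, while some other genes of type II cells did. Of 26 surfactant and type II cell genes 2 were called higher (7.69%) and 3 lower, with a median of -0.02. *Sftpb*, surfactant protein B, differed by 0.04, and *Sftpa1*, surfactant protein A, read 12.88, 12.83 and 12.99 at E18.5 and 12.98, 12.83 and 12.94 at PN1, and neither passed the test, both being chosen after their values were seen. Whether the array compresses differences at such high values was not tested. *Sftpd*, the collectin that binds microbes, was an exception and read 11.05, 10.96 and 11.29 at E18.5 and 11.74, 12.07 and 12.03 at PN1, a difference of 0.84 (standard error 0.12, adjusted p = 0.00615). *Il33*, an alarmin of type II cells, read 10.28, 10.27 and 10.42 at E18.5 and 11.04, 10.93 and 10.91 at PN1, and *Scd1*, the desaturase that makes oleate, read 12.52, 12.51 and 12.56 at E18.5 and 11.90, 11.23 and 11.48 at PN1 and fell by 0.99. Of 22 type I cell genes 6 were higher (27.3%) and 0 lower. *Igfbp2*, which binds insulin-like growth factors, read 8.07, 8.34 and 8.15 at E18.5 and 8.89, 9.08 and 8.99 at PN1, a difference of 0.80 (standard error 0.09, adjusted p = 0.00264). The water channel *Aqp5* differed by 0.47 and the proteoglycan *Spock2* by 0.53, calls that were lost for *Aqp5* without C7, C8, C9 or C15 (adjusted p up to 0.0827) and *Spock2* without C7, C8, C9 or C15 (adjusted p up to 0.0667). The upward count of the type I list was 1 without C7, 2 without C8, 2 without C9 and 1 without C15.

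Airway genes diverged. In secretory cells 3 genes were called higher and 3 lower of 18. *Cldn10*, a claudin of club cells, had a mean of 11.09 ± 0.02 (SD, n = 3) at E18.5 and 10.12 ± 0.20 at PN1, a difference of -0.96 (standard error 0.10, adjusted p = 0.00243), whereas *Aldh1a1*, which makes retinoic acid, read 11.47, 11.60 and 11.54 at E18.5 and 12.10, 12.32 and 12.26 at PN1 and *Gabrp*, a chloride channel subunit, read 9.95, 9.83 and 9.91 at E18.5 and 10.51, 10.60 and 10.35 at PN1. Of 24 genes of ciliated cells 6 were called lower (25%) and 1 higher, with a median of -0.26, and 23 of 24 had a difference below 0. *Lrrc23*, a protein of the ciliary radial spoke, read 8.95, 9.13 and 8.78 at E18.5 and 8.34, 8.29 and 8.18 at PN1, a difference of -0.69 (standard error 0.10, adjusted p = 0.00615). *Tppp3*, a tubulin-binding protein, was the member called higher, at 11.78, 11.81 and 11.68 at E18.5 and 12.30, 12.40 and 12.24 at PN1. *Foxj1*, the master regulator of motile cilia, differed by -0.15 and was not called. The downward count of ciliated genes was 1 without C7, 2 without C8 and 3 without C9. Movement in both directions was also seen in genes of neuroendocrine cells and neurons, of which *Stmn2*, a microtubule regulator of growing axons, read 10.14, 10.16 and 10.36 at E18.5 and 11.36, 11.67 and 11.46 at PN1 and *Ddc*, which makes serotonin and dopamine, read 8.46, 8.39 and 8.52 at E18.5 and 7.84, 7.83 and 7.67 at PN1.

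The enzymes of cholesterol synthesis rose nearly as a whole. They are controlled together by SREBP2, which SCAP carries out of the endoplasmic reticulum when sterol is low. Of 17 enzymes 14 were called higher (82.4%, against 5.71% of all probe sets) and 0 lower, and the median was 0.54. Averaged over the list, levels relative to the E18.5 mean were 0.52, 0.72 and 0.70 in C13, C14 and C15. *Cyp51*, the lanosterol demethylase, read 8.12, 8.37 and 8.31 at E18.5 and 9.35, 9.82 and 9.64 at PN1, a difference of 1.33 (standard error 0.13, adjusted p = 0.00184). *Msmo1*, a later oxidase of the path, read 9.59, 9.92 and 9.91 at E18.5 and 10.77, 11.21 and 11.11 at PN1, and *Idi1*, the isomerase that makes the active isoprene unit, read 9.47, 9.79 and 9.65 at E18.5 and 10.50, 10.96 and 10.79 at PN1. *Sqle*, which oxidizes squalene, read 9.48, 9.75 and 9.57 at E18.5 and 10.59, 10.76 and 10.79 at PN1, a difference of 1.11 (standard error 0.09, adjusted p = 0.00122). In each of these genes C13 was the lowest PN1 array and still lay above every E18.5 array. *Insig1*, a sterol-responsive anchor of SCAP, rose by 0.47 and *Srebf2* by 0.37, with calls lost for *Insig1* without C7, C8 or C15 (adjusted p up to 0.0598) and *Srebf2* without C7, C8, C9 or C15 (adjusted p up to 0.124). Of 11 genes of sterol uptake and feedback these 2 were called higher and 3 lower, the LXR targets *Abca1* and *Mylip* and the receptor gene *Nr1h3*. *Mylip*, the ligase that degrades the LDL receptor, read 10.31, 10.05 and 10.37 at E18.5 and 9.41, 9.14 and 8.97 at PN1, and *Nr1h3*, which encodes the oxysterol receptor LXR alpha, differed by -0.53, a call lost without C9 (adjusted p = 0.0509). Omission of 1 array left between 10 and 16 enzymes of cholesterol synthesis called higher.

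Fatty acid genes moved less as a group than the sterol enzymes. Of 20 genes of fatty acid synthesis 3 were called higher (15%, against 5.71% of all probe sets) and 2 lower (10%, against 5.4%), with a median of 0.05. Higher in every PN1 array were 9 of the 20 and lower 3, against 17.6% and 16.4% of all probe sets. The upward count was 1 without C7, C8 or C15. Called lower were the desaturases *Scd1* and *Scd2*. *Scd2* read 12.91, 12.91 and 12.91 at E18.5 and 12.47, 12.17 and 12.26 at PN1, a difference of -0.61 (standard error 0.08, adjusted p = 0.0055), and *Elovl1*, an elongase of long chains, differed by 0.53 (standard error 0.07, adjusted p = 0.00644). *Srebf1*, chosen after its values were seen, differed by -0.32 (standard error 0.08, adjusted p = 0.0512) and was not called. Genes of fatty acid oxidation had 8 of 23 members called higher (34.8%) and 3 lower (13%). *Cpt1a*, the enzyme that admits fatty acids to the mitochondrion, read 10.33, 10.26 and 10.35 at E18.5 and 11.32, 10.97 and 11.18 at PN1, a difference of 0.84 (standard error 0.09, adjusted p = 0.00264), and *Slc25a20*, the carnitine carrier, differed by 0.69 (standard error 0.08, adjusted p = 0.00388). *Dgat2*, which makes triglyceride, read 10.38, 10.47 and 10.57 at E18.5 and 9.31, 9.44 and 9.63 at PN1 and fell by 1.02, whereas the median of the lipid storage list was 0.12, with 6 of 20 higher. In phosphatidylcholine synthesis 1 gene of 23 was called higher and 3 lower, shares of 4.35% and 13%. *Lpin1*, a phosphatidate phosphatase, fell by 0.73, and *Pcyt1a*, the rate-limiting enzyme, chosen after its values were seen, differed by -0.04. Without 1 array the count of oxidation genes called higher was as low as 4 (4 without C7, 4 without C8, 4 without C9 and 5 without C15), and that of lipid storage genes was 2 without C7, 2 without C8, 2 without C9 and 3 without C15.

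Many contractile genes rose. Of 25 genes of smooth muscle and myofibroblasts 13 were called higher (52%) and 2 lower, with a median of 0.31. Beside *Cnn1*, *Actg2*, an actin of smooth muscle, read 10.13, 10.42 and 10.27 at E18.5 and 11.64, 11.53 and 11.63 at PN1, a difference of 1.32 (standard error 0.08, adjusted p = 0.000755). *Tagln*, transgelin, read 9.70, 9.81 and 9.75 at E18.5 and 10.63, 11.18 and 11.22 at PN1, and *Des*, the intermediate filament desmin, read 10.15, 10.16 and 10.21 at E18.5 and 11.26, 11.34 and 11.35 at PN1. The 3 PN1 arrays of *Des* lay within 0.1 of each other. *Acta2*, the actin by which myofibroblasts are stained, chosen after its values were seen, rose by 0.59, and *Myh11*, the heavy chain of smooth muscle myosin, differed by 0.31 (adjusted p = 0.361) and read 9.11, 9.35 and 9.05 at E18.5 and 9.91, 9.06 and 9.48 at PN1, where C13 stood above the other PN1 arrays. The members that fell were *Pdgfra*, a receptor of myofibroblast progenitors and lipofibroblasts, at 11.20, 11.12 and 11.18 at E18.5 and 10.46, 10.11 and 10.36 at PN1, and *Hhip*, a Hedgehog inhibitor of mesenchyme, at 11.41, 11.55 and 11.44 at E18.5 and 10.95, 9.99 and 10.38 at PN1. The call of *Hhip* was lost without C7, C8, C9 or C15 (adjusted p up to 0.097), and the upward count of the list was 8 without C7.

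In the matrix, *Mfap5*, a microfibril protein, read 8.42, 8.63 and 8.64 at E18.5 and 10.01, 10.09 and 9.94 at PN1, a difference of 1.45 (standard error 0.08, adjusted p = 0.000402), and *Loxl1*, which crosslinks elastin, differed by 0.73 (standard error 0.06, adjusted p = 0.00122). *Fbln1*, fibulin 1, read 10.50, 10.57 and 10.58 at E18.5 and 10.11, 9.82 and 9.95 at PN1 and fell, while *Eln*, elastin itself, chosen after its values were seen, differed by -0.13 and was not called. *Timp1*, an inhibitor of matrix proteases, read 9.13, 9.25 and 9.21 at E18.5 and 9.97, 10.79 and 10.63 at PN1, a difference of 1.27 (standard error 0.19, adjusted p = 0.00875). Over the collagens and matrix enzymes 6 of 33 were higher and 4 lower, with a median of 0.03, the upward count being 3 without C7, 3 without C8, 3 without C9 and 3 without C15 and the downward count 0 without C7, 2 without C8, 0 without C9, 7 without C13 and 0 without C15, and *Col1a1*, chosen after its values were seen, differed by 0.01. *Fgf10*, a growth factor of distal mesenchyme, fell by 0.48, and this call was lost without C7, C9 or C15 (adjusted p up to 0.0709). *Upk1b* of the mesothelium, the outer lining of the lung, read 9.46, 9.45 and 9.85 at E18.5 and 10.78, 10.73 and 10.70 at PN1. Elastic fiber genes had 3 of 16 members higher and 1 lower.

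Vascular genes rose in part. Of 23 genes that mark subtypes of alveolar capillary 7 were called higher (30.4%) and 0 lower, and of 26 general endothelial genes 5 and 0. *Tmem100* led the first list. *Hpgd*, which degrades prostaglandins in lung endothelium, read 10.30, 10.38 and 10.36 at E18.5 and 11.59, 11.62 and 11.36 at PN1, a difference of 1.18 (standard error 0.08, adjusted p = 0.000794). *Nos3*, endothelial nitric oxide synthase, a source of the vasodilator that lowers pulmonary resistance, read 8.58, 8.69 and 8.66 at E18.5 and 9.04, 9.04 and 9.15 at PN1, a difference of 0.43 (standard error 0.06, adjusted p = 0.00641). *Pecam1*, a general marker of endothelium chosen after its values were seen, differed by 0.01 and was not called. Among prostaglandin genes 5 of 23 were higher and 0 lower, and the upward count was 3 without C7, 10 without C13 and 3 without C15. *Ptgs2*, the inducible cyclooxygenase, read 7.79, 7.80 and 8.04 at E18.5 and 8.58, 8.98 and 9.22 at PN1, so the inducible enzyme of synthesis and the enzyme of breakdown rose together, and *Ptger4*, a prostaglandin E2 receptor, differed by 0.56 (standard error 0.07, adjusted p = 0.00397). Signals that act on vessels and mesenchyme included *Smad6*, an inhibitor of BMP signaling, at 9.27, 9.36 and 9.53 at E18.5 and 10.32, 10.09 and 10.39 at PN1, *Id1*, a target of that pathway, which differed by 0.71 (standard error 0.10, adjusted p = 0.00716), and *Heyl*, a Notch effector of vascular smooth muscle, at 9.0, 9.33 and 9.10 at E18.5 and 10.17, 10.11 and 10.24 at PN1. Over the lists, 10 of 32 TGF-beta and BMP genes (31.2%) and 4 of 20 Notch genes (20%) were higher. *Sema3c*, a guidance factor, read 9.46, 9.46 and 9.5 at E18.5 and 10.69, 10.76 and 10.71 at PN1, a difference of 1.25 (standard error 0.05, adjusted p = 0.000237). Without 1 array the upward count of the endothelial list was 1 without C7, 2 without C8, 2 without C9 and 2 without C15, that of the capillary list 3 without C7 and 4 without C8, that of the TGF-beta and BMP list 3 without C7, 4 without C8, 5 without C9 and 4 without C15, and that of the Notch list 1 without C7, 2 without C8, 1 without C9 and 1 without C15.

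**Figure D4:**
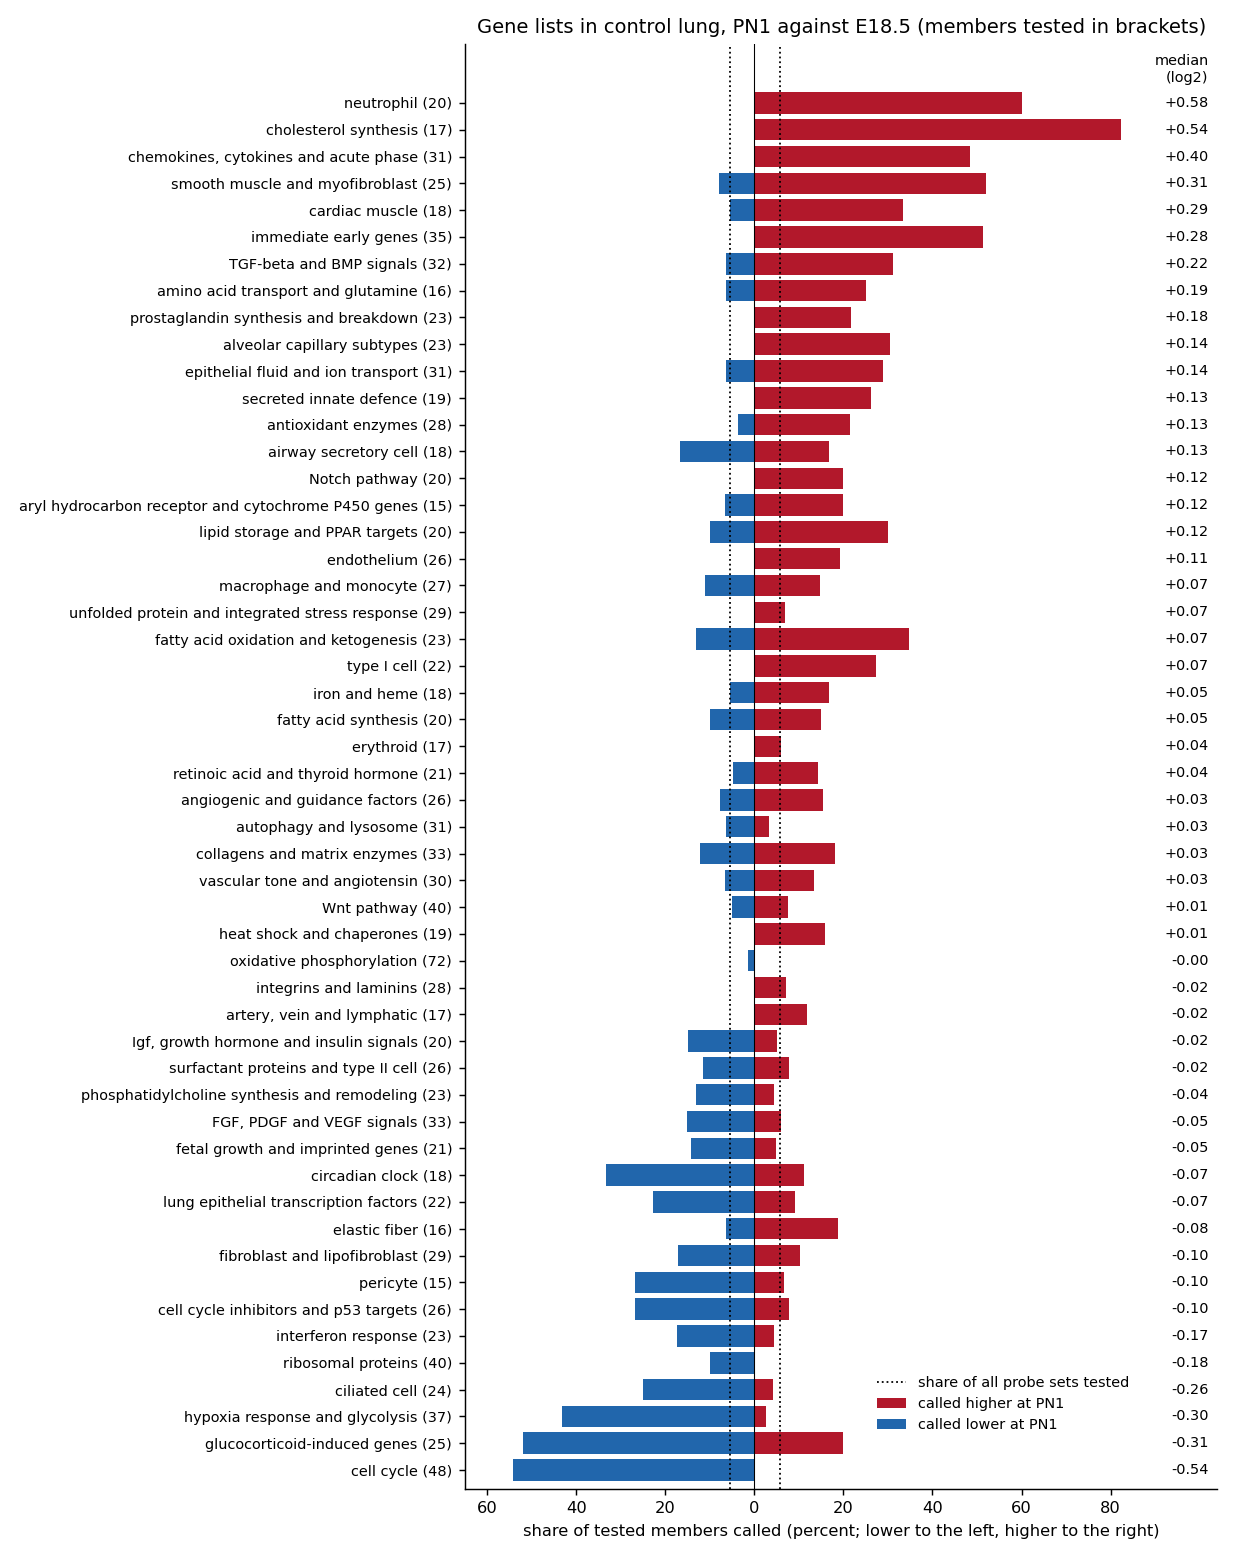
Share of the tested members of each gene list called higher (red, to the right) or lower (blue, to the left) at PN1, in percent, with the number of members tested in brackets, the median difference over all members on the array (log2) at the right, and dotted lines at the shares of all probe sets tested, 5.71% and 5.4%. Lists of 15 or more tested members are drawn, from neutrophil at the top, median 0.58, to cell cycle at the bottom, median -0.54.

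Many immediate early genes, which stimuli switch on within minutes without new protein, rose. Of 35 tested 18 were called higher (51.4%) and 0 lower, with a median of 0.28. *Ccn1*, a matricellular protein induced by stretch and by serum, read 10.49, 10.73 and 10.64 at E18.5 and 11.85, 11.62 and 11.82 at PN1, a difference of 1.15 (standard error 0.09, adjusted p = 0.00109). *Nr4a1*, an orphan nuclear receptor, read 8.54, 8.90 and 8.78 at E18.5 and 9.69, 9.48 and 9.97 at PN1, and *Egr1*, a zinc finger factor, read 7.94, 8.17 and 8.02 at E18.5 and 9.46, 9.05 and 8.55 at PN1. The call of *Egr1* was lost without C7, C8 or C9 (adjusted p up to 0.107). *Fos*, chosen after its values were seen, rose by 0.88 while *Jun* differed by 0.09 and was not called. These genes respond within the time a lung takes to be collected, and as the ages were collected in different ways, that part cannot be told apart from age. Among heat shock genes and chaperones the members called were the cold-inducible RNA-binding proteins *Cirbp* and *Rbm3* and the chaperone *Dnajb4*, whose call was lost without C7, C8 or C15 (adjusted p up to 0.0723). *Cirbp* had a mean of 9.87 ± 0.11 (SD, n = 3) at E18.5 and 11.02 ± 0.28 at PN1, a difference of 1.15 (standard error 0.14, adjusted p = 0.00388), and *Rbm3* had a mean of 12.54 ± 0.05 (SD, n = 3) at E18.5 and 12.97 ± 0.07 at PN1. Of 29 genes of the unfolded protein response 2 were higher, *Dnajb11* and *Asns*, and without C13 5. *Asns*, asparagine synthetase, differed by 0.74 (standard error 0.11, adjusted p = 0.00791). Omission of 1 array left between 12 and 20 immediate early genes called higher.

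Apart from catalase, the antioxidant enzymes that were called rose. Of 28 tested 6 were called higher (21.4%), and *Cat* was the member called lower. Higher in every PN1 array were 12 of the 28 and lower 4, against 17.6% and 16.4% of all probe sets. Of the 29 on the array 20 had a difference above 0 and 9 below. *Sod3*, the extracellular superoxide dismutase, read 8.18, 8.13 and 8.37 at E18.5 and 9.74, 9.58 and 9.37 at PN1, a difference of 1.34 (standard error 0.11, adjusted p = 0.00122). *Gclc*, the rate-limiting enzyme of glutathione synthesis, read 10.28, 10.19 and 10.46 at E18.5 and 10.81, 11.01 and 11.35 at PN1, and *Gpx2*, a glutathione peroxidase of epithelium, read 7.39, 7.46 and 7.48 at E18.5 and 7.97, 9.18 and 8.72 at PN1. Calls were lost for *Gclc* without C7 or C8 (adjusted p up to 0.0785) and *Gpx2* without C7, C8, C9 or C15 (adjusted p up to 0.124), and the upward count was 1 without C7, 1 without C8, 2 without C9 and 2 without C15. Cytochrome P450 genes were led by *Cyp1a1*, the classical target of the aryl hydrocarbon receptor. It read 6.42, 6.22 and 6.40 at E18.5 and 8.73, 9.57 and 9.12 at PN1, below the low-value filter on all 3 E18.5 arrays, and was therefore outside the probe sets tested. It is named after its values were seen, and with E18.5 values below that floor its measured difference of 2.79 is a description with no test. When the filter asked for 3 of 6 arrays, which *Cyp1a1* passes through PN1 alone, 307 more probe sets entered, of which 24 were called higher and 37 lower, and the background share called higher was 5.74%. A gene that enters such a fit only through the age at which it is high had to differ, so these counts are a description too. The receptor *Ahr* differed by 0.10 and was not called. *Cyp2b10*, a target of the receptor CAR, read 8.62, 8.52 and 8.80 at E18.5 and 9.53, 9.44 and 9.25 at PN1, a difference of 0.76 (standard error 0.10, adjusted p = 0.0047), in contrast to *Cyp2e1*.

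Further lists differed in how many members were called. Of 72 genes of oxidative phosphorylation 0 were called higher and 1 lower (*Ndufa2*, a call lost without C7, C8, C9 or C15, adjusted p up to 0.144), and their differences ran from -0.43 to 0.26 with a median of 0.00. Without C13, 7 were called higher. Ribosomal protein genes had 4 of 40 members called lower (10%, against 5.4% of all probe sets) and none called higher. Of the 40, 28 were lower in every PN1 array, against 16.4% of all probe sets. A difference below 0 was seen in 39 of 40, with a median of -0.18, against 0.008 over all probe sets tested. The downward count of that list was 0 without C7, 0 without C8, 1 without C9, 18 without C14 and 0 without C15. Among 17 erythroid genes the transferrin receptor *Tfrc*, which other growing cells express too, was called higher, a call lost without C7, C8, C9 and C15 in turn (adjusted p up to 0.0838), and *Alas2*, the heme synthesis enzyme of red cells, read 11.66, 11.64 and 11.80 at E18.5 and 11.63, 11.58 and 11.44 at PN1. Genes of tissues that may be carried along with the lung gave mixed readings. Of 18 cardiac genes 6 were called higher (33.3%) and 1 lower, with a median of 0.29. *Ankrd1*, a stress-induced gene of heart and other muscle, read 8.59, 8.74 and 8.72 at E18.5 and 9.78, 10.24 and 10.32 at PN1, and *Actc1*, cardiac alpha actin, read 12.18, 12.19 and 12.08 at E18.5 and 12.58, 12.82 and 12.72 at PN1. The atrial markers *Myh6* and *Myl7*, chosen after their values were seen, differed by 0.45 and 0.09 and were not called. Pulmonary veins of the mouse hold cardiac muscle of their own. The cardiac list averaged 0.26, 0.39 and 0.23 in C13, C14 and C15 relative to the E18.5 mean, and its part in the contractile genes above was not tested. *Rag1* of thymus read 6.24, 6.32 and 6.11 at E18.5 and 6.45, 6.28 and 6.19 at PN1 and *Ucp1* of brown fat 6.05, 6.07 and 6.06 at E18.5 and 6.14, 6.17 and 6.12 at PN1, both near the bottom of the range. Of 7 liver genes *Alb*, albumin, was called lower, at 7.68, 7.27 and 7.90 at E18.5 and 6.83, 6.72 and 6.90 at PN1, and that call was lost without C7 or C15 (adjusted p up to 0.0809). The upward count of the cardiac list was 2 without C7, 3 without C8 and 3 without C9.

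The array also holds 308 probe sets of miRNA genes, which read the gene's transcript and cannot tell the mature arms apart. MicroRNAs are short RNAs that guide silencing complexes to messenger RNAs through their seed, bases 2 to 8. Of 108 that passed the filter 6 were called higher and 2 lower, a share of 7.41%, below the 11.1% of all probe sets. *Mir27a* read 7.07, 7.23 and 7.13 at E18.5 and 7.75, 7.85 and 8.22 at PN1 and its neighbor *Mir23a* read 6.98, 6.93 and 6.93 at E18.5 and 7.31, 7.42 and 7.59 at PN1, differences of 0.79 (standard error 0.12, adjusted p = 0.00843) and 0.49 (standard error 0.08, adjusted p = 0.00958). Both genes lie in a cluster on chromosome 8 that is known to be transcribed as a unit. *Mir7-1* read 8.08, 8.20 and 8.20 at E18.5 and 8.77, 9.09 and 8.99 at PN1 and *Mirlet7d* read 7.07, 7.01 and 7.04 at E18.5 and 7.46, 7.44 and 7.54 at PN1, and *Mir143*, a miRNA of smooth muscle, read 7.34, 7.32 and 7.37 at E18.5 and 8.06, 7.77 and 8.04 at PN1. Of the lower ones *Mir15a*, a member of a family that targets cyclins, read 8.46, 8.34 and 8.46 at E18.5 and 8.04, 7.75 and 7.76 at PN1, and its call was lost without C7 (adjusted p = 0.0545). *Mir382*, of the imprinted cluster on chromosome 12, read 7.89, 7.81 and 7.59 at E18.5 and 6.69, 6.98 and 7.23 at PN1, with a call lost without C7 or C8 (adjusted p up to 0.0725), and *Mir26a-1* rose by 0.35, with a call lost without C7, C8 or C9 (adjusted p up to 0.104). These miRNA genes were chosen after their values were seen. The better-known mature arm of each gene whose call held without any array, apart from *Mir143*, whose sequence is not shown, is given as RefSeq lists it, with the seed in capitals, to show which seeds they carry.
mmu-miR-23a-3p: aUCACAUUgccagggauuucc
mmu-miR-27a-3p: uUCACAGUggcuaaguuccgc
mmu-miR-7a-5p: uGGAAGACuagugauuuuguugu
mmu-let-7d-5p: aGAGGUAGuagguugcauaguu
The 4 seeds differ from each other, and those of miR-23a-3p and miR-27a-3p share their first 5 letters, UCACA.

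The change across birth was read again in other arrays, those of the *Scap* deleted lungs of the same line, KO10, KO11 and KO12 at E18.5 and KO16, KO17 and KO18 at PN1. These share no array with the controls but differ in genotype. By the study's methods the controls were littermates of deleted mice, and no difference in collection between the genotypes is named. Deleted and control lungs may therefore share litters, and the deleted lungs are not an independent reading of the change. Because KO17 and KO18 stood apart from the other arrays in earlier results of these data, values are also given with KO16 as the only deleted lung of PN1. Of the 1311 probe sets that were higher in PN1 controls 901 (68.7%) were also higher in deleted lungs, where 48% of all probe sets tested had a difference above 0, and of the 1241 lower ones 1177 (94.8%) were also lower. With KO16 alone at PN1 the shares were 98.6% and 98.8%, beside 54% of all probe sets above 0. The median changes of the 2 sets were 0.41 and -0.45 in controls, 0.19 and -0.67 in deleted lungs, and 0.43 and -0.46 with KO16 alone. A test of the difference itself, the interaction of genotype with age over the 12 arrays of the line in limma, called 0 of 22800 probe sets (0%), with 4181 at an unadjusted p under 0.05. Without KO17 and KO18 it called 0, with 733 at an unadjusted p under 0.05, but KO16 is then the only deleted lung of PN1 and is assumed to vary like the other groups. *Cyp2e1* and *Cnn1* differed by -3.25 and 1.94 in deleted lungs, beside -3.06 and 2.13 in controls, and *Cat* and *Ccl6* by -2.09 and 0.30, beside -3.09 and 1.71. The last 2 differed between single deleted arrays. *Ccl6* read 9.62, 10.29 and 10.30 in KO10, KO11 and KO12 and 11.35, 10.03 and 9.72 in KO16, KO17 and KO18. KO16 thus lay above every deleted array of E18.5, whereas KO17 and KO18 lay below KO11 and KO12. *Cat* read 8.72, 8.53 and 10.61 in KO16, KO17 and KO18.

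**Figure D5:**
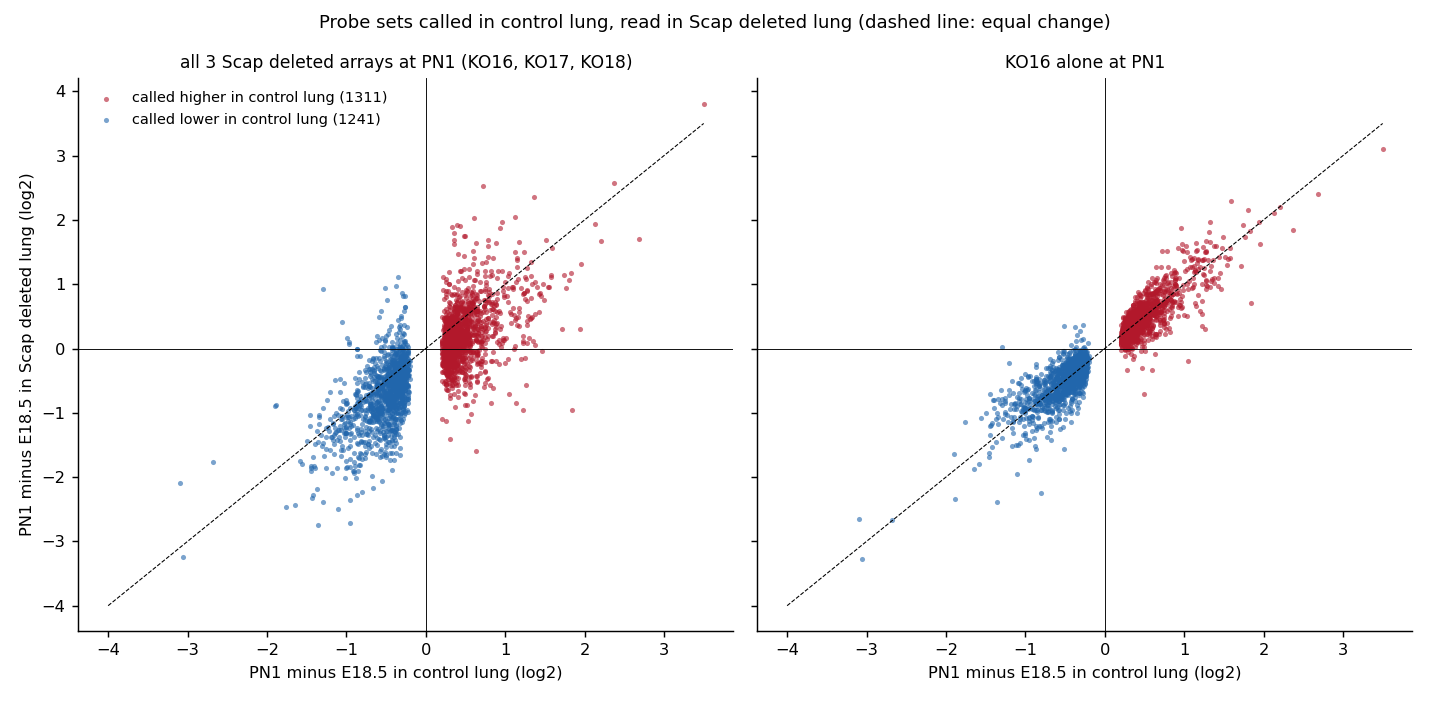
Difference between PN1 and E18.5 in *Scap* deleted lung (log2, y axis) against that in control lung (log2, x axis) for the 2552 probe sets called in control lung, with all 3 deleted PN1 arrays (left) and with KO16 alone (right), where the dashed line marks equal change. Points called higher in control lung (red) lie above 0 in 68.7% at the left and in 98.6% at the right.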

How the data were processed

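Whole lung RNA of 3 control lungs of the *Scap* line at E18.5 and 3 at PN1 was read on Affymetrix Mouse Gene 1.0 ST arrays. The authors deposited the values as log2 expression per probe set, and the summarization and normalization behind them and the genome build are not given in the sources used here. They were used as deposited. Arrays have no depth, and the number of arrays limits the precision. Genes were named through the platform annotation and RefSeq (GRCm38.p6), and 16648 of the probe sets tested carry 1 symbol.

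As in the study's methods, a probe set entered when it reached the 35th percentile of an array on 66% of arrays or more, here 4 of the 6, so none passed through 1 age alone. limma 3.58.1 in R 4.3.3 (lmFit, eBayes) gave PN1 minus E18.5 for 22962 probe sets, with the adjustment of Benjamini and Hochberg, two-sided, and calls at an adjusted p under 0.05. All adjusted p-values are from limma. The fit was tested on simulated data. The alternatives were other filters, scalings, arrays in the fit, variance settings, the methods' t-test, a sex term added after seeing the data, and omission of each array. The labels give the arrays as biological replicates without litters. The p-values set the difference against the spread between these lungs and treat the lungs as independent. Whether lungs of 1 age shared a litter is not known. The *Scap* deleted arrays were fitted with the controls for the interaction of genotype and age.

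The comparison, the gene lists and the rules were chosen with earlier results of these data known. Named were the 15 largest changes each way among called genes with 1 symbol, up to 4 called genes of each list with the largest change, *Scap* and housekeeping genes (220 probe sets). All other genes were chosen after their values were seen. Lists are described by counts and medians, with no test of a list.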

Additional observations from a re-analysis of the deposited data

How the results depend on the processing

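No paired analysis was possible because the arrays of the 2 ages share no replicate number. The counts of probe sets called higher and lower, 1311 and 1241, became 272 and 317 when all 12 arrays of the *Scap* line shared the estimate of spread, 307 and 268 with the methods' t-test after adjustment, and 6887 and 6654 with array weights, which gave C15 a weight of 53.7 against 0.148 for C13 and did not converge. At the threshold of the methods, 242 and 275 became 59 and 79 with 12 arrays, 0 and 0 with the adjusted t-test (259 and 299 without adjustment, and 2978 and 2655 at an unadjusted p under 0.05 alone), and 537 and 612 with array weights. When 1 array was left out the counts ranged from 410 to 2592 and from 476 to 2616, and at the threshold of the methods from 45 to 404 and from 30 to 488, with the highest counts without C13. No filter, the filter of 3 of 6 arrays, the 50th percentile filter, quantile normalization, median centring, 9 arrays in the fit, an intensity trend with robust estimation and the sex term kept each of these counts within 1.5 times. Of the 220 genes named by the rule, 111 lost their call with 12 arrays in the fit, 146 with the methods' t-test, and 86, 67, 77, 1, 12 and 67 without C7, C8, C9, C13, C14 and C15. *Atp6v0d2*, which did not pass the filter without C9, C13, C14 or C15, is not counted there.

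Directions turned only for named genes and list medians whose main values lay between -0.04 and 0.13. *Ppia*, at -0.01, was 0.07 after quantile normalization, 0.03 with array weights, and between -0.07 and 0.07 without 1 array, and *Tbp*, at -0.02, was between -0.07 and 0.03. The median of the phosphatidylcholine list, -0.04, lay between -0.04 and 0.00 without 1 array, and that of the macrophage list, 0.07, between -0.01 and 0.12. With array weights the medians of the unfolded protein response and mesothelium lists were -0.00 and -0.02, against 0.07 and 0.13 in the main fit. The reason for each move was not tested.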

Other observations

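Regulators of lung growth and epithelial identity were also followed. Transcription factors of the lung epithelium had 2 of 22 called higher and 5 lower (lower 1 without C7, 2 without C8, 1 without C9 and 1 without C15). *Foxp2*, a repressor of the distal epithelium, read 9.77, 9.79 and 9.76 at E18.5 and 9.30, 8.78 and 8.86 at PN1, a difference of -0.79 (standard error 0.13, adjusted p = 0.0108), and *Sox9* of the distal tips read 9.96, 9.60 and 10.01 at E18.5 and 9.23, 9.25 and 9.33 at PN1, while *Nkx2-1*, the lineage factor of the whole epithelium, which was chosen after its values were seen, differed by -0.03 and was not called. Inhibitors of the cell cycle and targets of p53 had 2 of 26 called higher and 7 lower (lower 2 without C7 and 2 without C9), led by *Gadd45g*, a stress sensor that acts on mitotic kinases, at 9.71, 9.79 and 9.62 at E18.5 and 8.49, 8.77 and 8.67 at PN1. In the imprinted and fetal growth list, with 1 of 21 called higher and 3 lower, *Nnat*, a proteolipid of the endoplasmic reticulum, fell by 1.07 on the log2 scale and *Slc38a4*, an amino acid transporter, read 9.71, 9.85 and 9.60 at E18.5 and 10.17, 10.48 and 10.77 at PN1. Among growth factor signals, with 2 of 33 called higher and 5 lower (lower 1 without C7, 1 without C9, 8 without C13 and 2 without C15), *Angpt2*, which loosens vessels, differed by -0.76 and *Vegfc* of lymphatics by 0.68. Of insulin and IGF signals, with 1 of 20 called higher and 3 lower, *Foxo3*, a factor that insulin holds in the cytoplasm, read 10.65, 10.44 and 10.54 at E18.5 and 10.08, 9.59 and 9.67 at PN1. The call was lost for *Foxp2* without C7 or C15 (adjusted p up to 0.0509), *Sox9* without C7, C9 or C15 (adjusted p up to 0.0822), *Slc38a4* without C7, C8 or C9 (adjusted p up to 0.0848), *Angpt2* without C7, C9 or C15 (adjusted p up to 0.0745) and *Foxo3* without C7, C9 or C15 (adjusted p up to 0.0631).

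Further groups moved in single genes. Secreted defence proteins had 5 of 19 called higher and 0 lower (higher 2 without C7, 3 without C8 and 2 without C15), among them *Slpi*, an inhibitor of neutrophil elastase made by epithelium, at 7.99, 7.51 and 7.98 at E18.5 and 8.40, 9.35 and 8.81 at PN1. Genes of vascular tone had 4 of 30 called higher and 2 lower (higher 2 without C7, 2 without C9, 8 without C13 and 2 without C15), with *Nppc*, C-type natriuretic peptide, at -0.54 and *Pde3a*, which breaks down cyclic AMP, at 0.56. Genes of retinoic acid and thyroid hormone had 3 of 21 called higher and 1 lower, and *Aldh1a3*, a retinaldehyde dehydrogenase, read 7.49, 7.52 and 7.51 at E18.5 and 8.01, 8.31 and 8.61 at PN1. Pericyte genes had 1 of 15 called higher and 4 lower (lower 1 without C7, 2 without C8, 2 without C9 and 2 without C15), led by *Ndufa4l2*, which hypoxia also induces, at 10.05, 9.87 and 10.22 at E18.5 and 9.29, 9.24 and 9.23 at PN1, and fibroblast genes 3 of 29 called higher and 5 lower (lower 2 without C7, 2 without C8, 1 without C9, 10 without C13 and 3 without C15). In the platelet list, with 3 of 9 called higher and 0 lower, *Thbs1*, thrombospondin 1, which many stressed cells make, read 10.69, 10.91 and 10.57 at E18.5 and 11.84, 11.52 and 12.18 at PN1. *Hdc* of mast cells and basophils, which makes histamine, read 10.08, 9.67 and 10.09 at E18.5 and 9.37, 8.97 and 8.88 at PN1. The mast cell and basophil list had 0 of 9 called higher and 1 lower, *Hdc*. Its 12 genes on the array had a median difference of 0.12, with 8 above 0 and 4 below. *Fabp7* of glia differed by 0.73. The call was lost for *Slpi* without C7, C8, C9 or C15 (adjusted p up to 0.126), *Aldh1a3* without C7, C8 or C9 (adjusted p up to 0.0599), *Hdc* without C7, C9 or C15 (adjusted p up to 0.0744) and *Fabp7* without C7, C9 or C15 (adjusted p up to 0.124). A second probe set without a symbol (probe set 10598018), singled out after its value was seen, differed by 2.37.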
